A study of Homo sapiens with 16 samples.

Results

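The transcripts described here are the downstream-of-gene transcripts (DoGs) of 52 nuclear genes that encode parts of mitochondria. A DoG is the stretch of RNA made when a polymerase runs past the end of a gene instead of stopping there. The 52 genes are those, among the 3139 rows of the DoG level table, whose gene symbol has no hyphen and begins with NDUF, COX and a digit, UQCR, ATP5, TIMM, TOMM, MRPL, MRPS or SLC25A, or is TFB1M or TFB2M. TIMM10B was left out by the rule. The rule reads the symbol alone and no measured value, but it was chosen with earlier results of these data known. By role they were 7 subunits and 2 assembly factors of complex I and 1 core protein of complex III. There were 4 subunits and 4 assembly factors of complex IV and 2 subunits of ATP synthase. Another 9 were components of the protein import machinery, 5 were carriers, and TFB1M and TFB2M made a pair. The proteins of the mitochondrial ribosome were 13 with MRPL and 3 with MRPS symbols. Roles were read from the symbols, so the figure labels large and small mitoribosome mean MRPL and MRPS. MRPL35, MRPS23 and MRPS31 fit the symbol rule and had a listed region, but had no row in the level table.

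As background, complexes I, III and IV of the inner membrane pass electrons from NADH to oxygen and pump protons, and ATP synthase uses the proton gradient to make ATP. Most of their subunits, all of the mitochondrial ribosome's proteins and the import channels are encoded in the nucleus, made in the cytosol and imported, so their nuclear genes end in ordinary polyadenylation sites. When cleavage at such a site fails, as happens to many genes in hyperosmotic stress, transcription goes on into the DNA beyond the gene, and the product stays in the nucleus. Some nuclear RNAs are bound so tightly into protein assemblies that they stay with the interphase when cells are extracted with acid phenol, and are then called semi-extractable.

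The libraries came from HEK293 cells, an established human embryonic kidney line, all wild type. Control cells had a change of medium, and cells in the DoG-inducing condition (OS+CHX) had 200 mM sorbitol together with 100 µg/mL cycloheximide for 9 h, so that osmotic stress and the block of translation cannot be told apart. RNA of each condition was prepared in 4 ways: conventional acid guanidinium phenol chloroform extraction, hiAGPC, in which the lysate is heated so that semi-extractable RNA also enters the aqueous phase, the SERIPH 1st-step fraction, which is the aqueous phase of a conventional extraction, and the SERIPH 2nd-step fraction, which is RNA recovered by heating the washed interphase. Each of the 8 groups had 2 libraries, called biological replicates by the study, 16 in all, and the methods describe the preparations as run in parallel on the same samples. The table holds no levels of the genes themselves, so the cell line was not checked against markers. In bulk RNA a change in the share of cells that make a DoG and a change in its amount per cell cannot be told apart.

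Levels were FPKM, a read density scaled to region length and sequencing depth, deposited to 0.01 over 1 region for each gene. For 51 of the 52 genes that region was as long as the longest one listed in any library; MRPL27 was measured over 121983 bases and its longest listed region was 115 kb. A DoG that was short in 1 condition and long in another was therefore averaged over the long region in both. A gene has a row in the table only if a DoG of at least 10 kb was listed for it in some library. Each gene thus entered through a group in which it was high. Most counts over the 52 are therefore given beside the same count over all 3139 rows. Read totals are not in the files, so the depth behind each value is unknown. The median of the 52 lay between 0.175 and 0.240 FPKM in the 8 control libraries, between 0.145 and 0.185 FPKM in the 4 aqueous OS+CHX libraries, at 0.510 and 0.530 FPKM in the OS+CHX hiAGPC libraries and at 0.735 and 0.715 FPKM in the OS+CHX 2nd-step libraries.

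A difference was called where limma, fitted on log2(FPKM + 0.1) across all rows and libraries, gave a Benjamini-Hochberg adjusted p under 0.05 and a log2 fold change of at least 1 in size. Rose and fell are used below only of called changes in the deposited FPKM. Counts at an unadjusted p under 0.05 were made for the 52 genes alone and are not read as a trait of them. The standard error (SE) of a log2 fold change was between 0.0738 and 0.266 for the 52 genes, and between 0.104 and 0.376 for a difference between 2 stress effects.

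**Figure D1:**
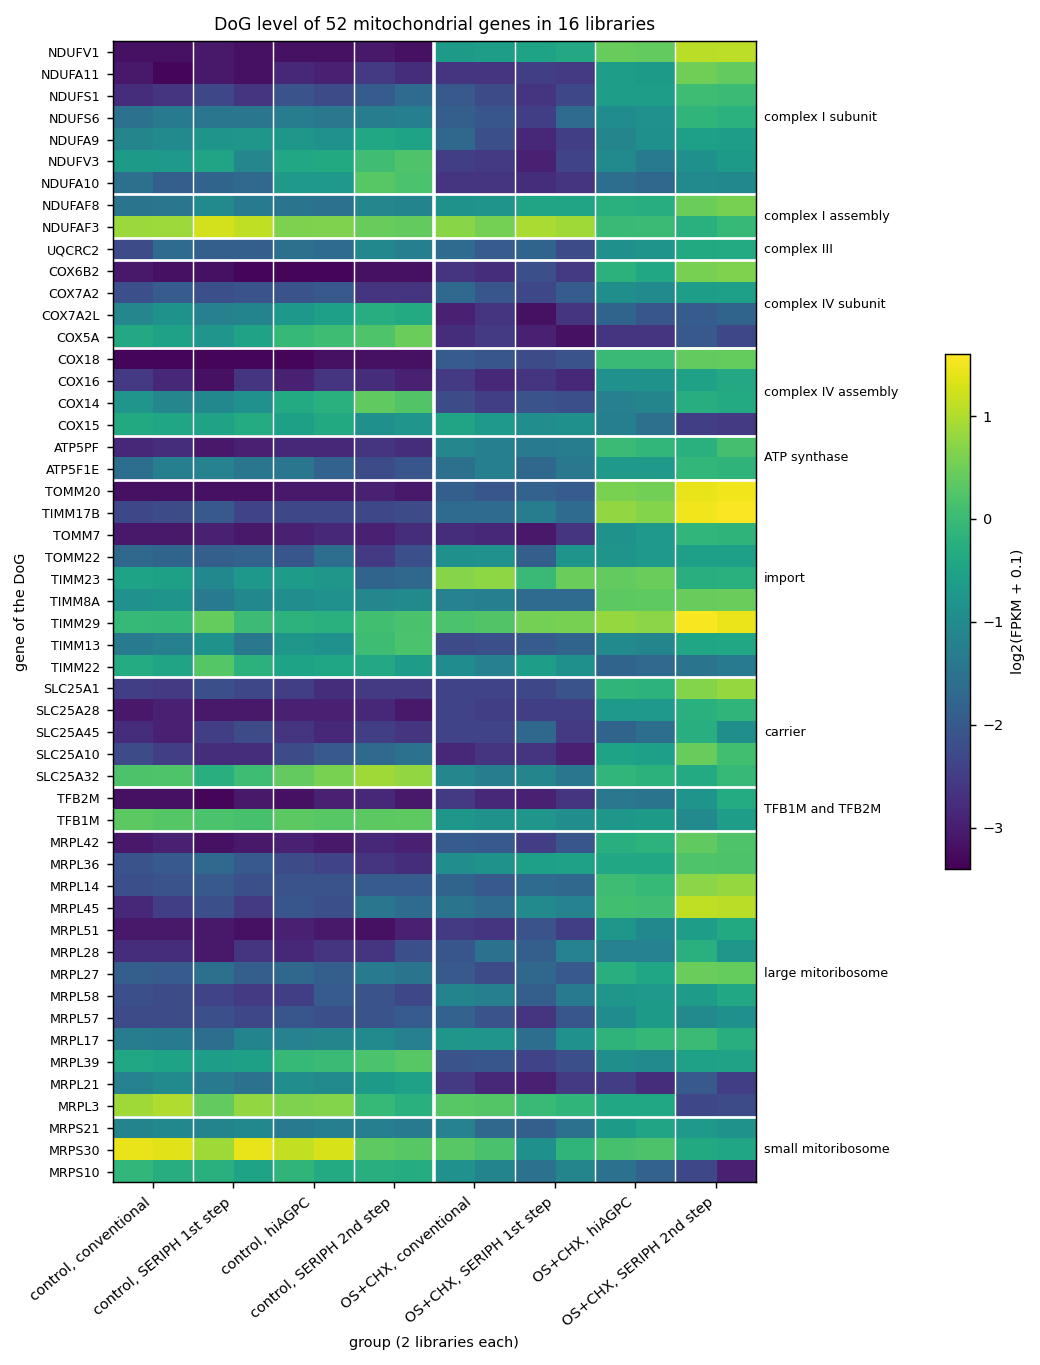
DoG level of each of the 52 genes (rows, grouped by role and ordered by the stress effect in the SERIPH 2nd-step fraction) in the 16 libraries (columns), as log2(FPKM + 0.1). The bright cells at the right are the OS+CHX 2nd-step libraries, where TOMM20 reached 2.60 and 2.73 FPKM, and the bright cells at the left include MRPS30, at 2.60 and 2.5 FPKM in the control conventional libraries.

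The genes differ in whether AATAAA or ATTAAA, the polyadenylation signals searched for, stands just before the DoG begins. Other forms of the signal were not searched for. The last 30 bases before the DoG begins are shown for 4 genes whose OS+CHX regions were the longest (TOMM20, COX18, TIMM29 and NDUFV1) and for 3 with DoGs in control cells that fell with OS+CHX (MRPL3, COX5A and TFB1M), read from GRCh38 on the gene's strand, 5′ to 3′, with AATAAA or ATTAAA in capitals. In 6 of the 7 the window is the 3′ end of the annotated gene, and for MRPL3 it ends 10 bases from it.
TOMM20: ttaagtgaatATTAAAgggcttggagaaaa
COX18: ataaaAATAAAaatacaactatataagtaa
TIMM29: agttAATAAAaccaggtggtaaaacaacta
NDUFV1: cccaccctccagctgccgctgctgtgactg
MRPL3: cAATAAAatcataaattatcggtcctgttt
COX5A: cattctgATTAAAcagctgagtaaaacaaa
TFB1M: gtaatAATAAAtctaggctcctttctttca
The windows lie at chr1:235109341-235109370 (minus strand) for TOMM20, chr4:73052362-73052391 (minus) for COX18, chr19:10933506-10933535 (plus) for TIMM29, chr11:67612525-67612554 (plus) for NDUFV1, chr3:131462202-131462231 (minus) for MRPL3, chr15:74919791-74919820 (minus) for COX5A and chr6:155256134-155256163 (minus) for TFB1M. Both the long OS+CHX DoGs and the control DoGs thus include genes with AATAAA and genes with ATTAAA, and the NDUFV1 window holds neither, its AATAAA lying outside these 30 bases but within the last 50.

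Over the last 50 bases before the DoG, searched on the gene's strand only, AATAAA was present in 26 of the 52 genes (50.0%) and in 52.1% of all rows. ATTAAA without AATAAA was present in 9 (17.3%, against 13.6% of all rows), and neither hexamer in 17 (32.7%, against 34.3%). For 3 genes, ATP5PF, COX6B2 and SLC25A10, the first 10 bases of the DoG were all A in the genome, which is 5.77% of the 52 against 0.924% of all rows. The 52 genes were short, with a median length of 12.4 kb against 31.9 kb for all rows, and the median of their longest listed regions was 20 kb against 30 kb. The GC content of the first 5 kb of the DoG had a median of 45.9% against 45.8%. The region of 22 genes (42.3%) ran over another gene on the same strand, as for 41.5% of all rows, and that of 7 (13.5%) over a protein-coding one, as for 20.7%. Reads of such a gene cannot be told apart from DoG reads. These 7 are COX15, COX6B2 (over TMEM150B), NDUFA11, NDUFA9, SLC25A1 (over GSC2), TIMM17B (over PCSK1N) and TIMM29. The TOMM20 region runs over 8 other genes on the strand and that of MRPL14 over 4, none of them protein-coding. The listed region of another gene on the same strand reached into 1 of the 52 genes (1.92%, against 3.79% of all rows): that of KCNG3 reached into COX7A2L in the control 2nd-step and hiAGPC libraries, 4 in all, without covering the gene's end or its DoG.

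The first question of the design is how the DoGs changed when cells were put into the DoG-inducing condition. In the SERIPH 2nd-step fraction 32 of the 52 rose, where 74.6% of all rows did, and 9 fell, where 11.7% of all rows did. The median log2 fold change was 1.67 for the 52 and 2.38 for all rows. When each library was centred on the median of its rows, which took 2.25 off every log2 fold change, 6 of the 52 were called higher (COX18, COX6B2, NDUFV1, SLC25A1, TIMM17B and TOMM20) and 22 lower. Over all 3139 rows centring left 581 called higher and 886 lower. Of the 52, 17 lay above the median row and 35 below it, so that genes that rose stand on both sides of it. In hiAGPC RNA 30 rose against 70.2% of all rows, and 8 fell against 9.14%, with medians of 1.11 and 1.86. Centring took 1.92 off in hiAGPC and left 5 higher and 20 lower, and 435 higher and 900 lower over all 3139 rows. A centred count given below without the count over all rows is not read as a trait of the 52.

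**Figure D2:**
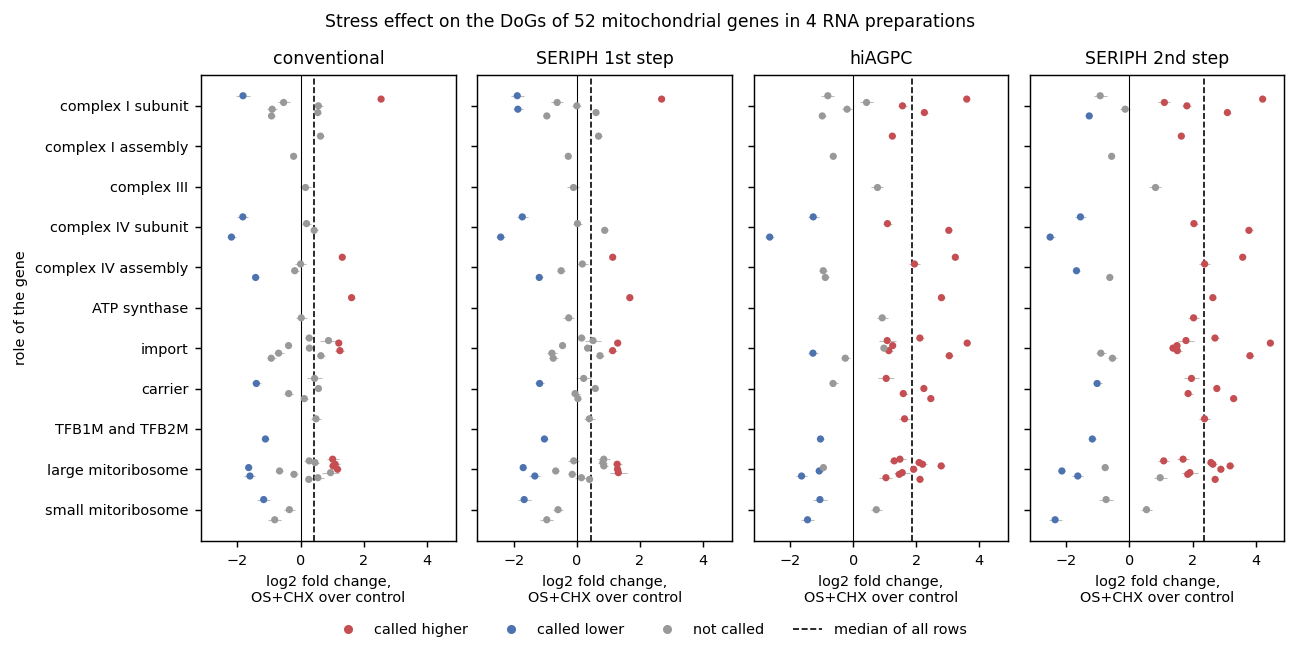
Log2 fold change of OS+CHX over control for each of the 52 genes (points, with SE as bars), by role, in the 4 preparations. Red points were called higher, blue lower and grey not called, and the dashed line is the median of all rows, at 2.38 in the SERIPH 2nd-step fraction. Of the 52 genes, 17 lie to the right of that line in the 2nd-step panel and 35 to the left, where part of the red points also stand.

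Among the subunits of complex I, 4 of 7 rose in the 2nd-step fraction and 1 fell, and 2 lay above the centred median. NDUFV1, the flavoprotein that takes electrons from NADH, was at 0.02 and 0.01 FPKM in the control 2nd-step libraries and at 2.03 and 2.06 FPKM under OS+CHX. Its log2 fold change was 4.22 (SE 0.08), and the groups were far apart. NDUFV1 also rose in the aqueous preparations, from 0.01 FPKM in both control conventional libraries to 0.53 and 0.56 FPKM. NDUFA11, an accessory subunit of the membrane arm, went from 0.07 and 0.05 FPKM to 1.33 and 1.22 FPKM, and NDUFS1, a core subunit with iron-sulfur clusters, from 0.16 and 0.22 FPKM to 0.94 and 0.90 FPKM. The accessory subunit NDUFA10 went the other way. Its DoG, which begins 64922 bases beyond the end of the gene's canonical transcript, was at 1.13 and 1.04 FPKM in control 2nd-step RNA and at 0.40 and 0.38 FPKM under OS+CHX, a log2 fold change of -1.27. NDUFV3, another accessory subunit, was at 0.95 and 1.07 FPKM in control and 0.44 and 0.53 FPKM in stressed 2nd-step libraries, with a log2 fold change of -0.93 that missed the limit of 1. In the 1st-step fraction NDUFV3 fell by 1.89 on the log2 scale, from 0.62 and 0.37 FPKM to 0.03 and 0.09 FPKM.

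The complex I assembly factors differed from each other. NDUFAF8 rose in the 2nd-step fraction, from 0.37 and 0.35 FPKM to 1.29 and 1.39 FPKM, by 1.65 on the log2 scale and so by less than the median row. NDUFAF3 was at 1.25 and 1.22 FPKM in control and 0.75 and 0.86 FPKM in OS+CHX 2nd-step libraries, a log2 fold change of -0.56. UQCRC2, a core protein of complex III, was at 0.38 and 0.32 FPKM and then at 0.68 and 0.69 FPKM, a log2 fold change of 0.81. Neither NDUFAF3 nor UQCRC2 was called in any of the 4 preparations.

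The subunits of complex IV were split evenly, with 2 of 4 rising and 2 falling in the 2nd-step fraction, and 1 above the centred median. COX6B2, an isoform of a subunit that is best known from testis, was at 0.01 FPKM in both control 2nd-step libraries and at 1.39 and 1.45 FPKM under OS+CHX. COX5A, a subunit of the matrix side, was at 1.07 and 1.29 FPKM in the control libraries and at 0.15 and 0.10 FPKM under OS+CHX. The COX5A fall of 2.51 on the log2 scale (SE 0.14) was the largest fall of the 52 in this fraction, and COX5A also fell in the other 3 preparations. COX7A2L, which takes part in joining complexes into supercomplexes, fell from 0.72 and 0.69 FPKM to 0.16 and 0.19 FPKM.

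Of the assembly factors of complex IV, COX18 and COX16 rose in the 2nd-step fraction, and both lay above the median after centring, COX16 only just, with 2.38 before it. COX18 inserts a tail of subunit 2 into the inner membrane. It was at 0.01 FPKM in both control 2nd-step libraries and at 1.22 and 1.23 FPKM under OS+CHX, a log2 fold change of 3.59 (SE 0.07). COX15, which acts in heme A synthesis, fell, from 0.44 and 0.48 FPKM to 0.08 and 0.07 FPKM, by 1.68 on the log2 scale. COX14, which binds newly made subunit 1, was at 1.20 and 1.08 FPKM and then at 0.72 and 0.69 FPKM, a log2 fold change of -0.62 that was not called. Both ATP synthase genes rose. ATP5PF, of the stalk, went from 0.06 and 0.05 FPKM to 0.76 and 0.99 FPKM, and ATP5F1E, the small epsilon subunit, from 0.11 and 0.14 FPKM to 0.84 and 0.80 FPKM, the first by more and the second by less than the median row.

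Of the 9 import genes, 7 rose in the 2nd-step fraction and none fell by the limma test, while 2 had negative changes (TIMM13 and TIMM22). After centring 3 lay above the median row. TOMM20, the receptor of the outer membrane for presequence proteins, had the largest stress effect of the 52. It was at 0.03 and 0.02 FPKM in control 2nd-step libraries and at 2.60 and 2.73 FPKM under OS+CHX, a log2 fold change of 4.47 (SE 0.08, adjusted p = 9.46e-14). TIMM17B, a core protein of the inner membrane channel for presequence proteins, went from 0.10 and 0.11 FPKM to 2.72 and 2.87 FPKM. TIMM29, of the carrier translocase, was already at 0.96 and 1.02 FPKM in control 2nd-step libraries and reached 2.84 and 2.64 FPKM, and its region includes other protein-coding genes, whose part in these values was not tested. TIMM29 rose by less than the median row. TIMM22, the channel protein of the same translocase, was at 0.67 and 0.54 FPKM in control and 0.26 and 0.29 FPKM in stressed 2nd-step libraries, a log2 fold change of -0.91, and it fell in hiAGPC RNA by 1.27 on that scale. TIMM13, a small chaperone of the intermembrane space, was at 0.94 and 1.04 FPKM and then at 0.64 and 0.66 FPKM.

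Of the 5 carriers, 4 rose and 1 fell in the 2nd-step fraction, and 2 lay above the centred median. SLC25A1, the citrate carrier, went from 0.07 FPKM in both control libraries to 1.5 and 1.66 FPKM. SLC25A10, the dicarboxylate carrier, went from 0.21 and 0.25 FPKM to 1.25 and 0.96 FPKM, less than the median row. SLC25A32, which carries folate, fell from 1.74 and 1.62 FPKM to 0.69 and 0.87 FPKM, by 1.02 on the log2 scale, and it had a change of -0.83 without replicate 1, which is short of the limit.

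TFB1M and TFB2M are related proteins with different work in mitochondria: TFB1M methylates the small ribosomal RNA, and TFB2M opens promoters for the mitochondrial RNA polymerase. On the deposited FPKM their DoGs moved in opposite directions. TFB2M was at 0.04 and 0.02 FPKM in control 2nd-step libraries and at 0.47 and 0.70 FPKM under OS+CHX, a log2 fold change of 2.38 (SE 0.17). That is about the change of the median row, and TFB2M was not called after centring. Its region was listed only in replicate 2 of OS+CHX 2nd-step RNA. The regions of both genes run over another gene on the same strand. TFB1M was at 1.16 and 1.19 FPKM and then at 0.39 and 0.55 FPKM, a log2 fold change of -1.18 (SE 0.12). TFB1M also fell by 1.04 in hiAGPC, 1.11 in conventional and 1.03 in 1st-step RNA, and its level lay between 1.00 and 1.19 FPKM in all 8 control libraries and between 0.39 and 0.55 FPKM in all 8 OS+CHX libraries. Without replicate 1 the TFB1M change in the 2nd-step fraction was -0.99, short of the limit.

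Of the 13 MRPL genes of the mitochondrial ribosome 9 rose and 2 fell in the 2nd-step fraction, and 5 lay above the centred median. MRPL42 had the largest change, from 0.04 and 0.03 FPKM to 1.20 and 1.07 FPKM, a log2 fold change of 3.19. MRPL14 went from 0.16 FPKM in both control libraries to 1.57 and 1.65 FPKM, and MRPL27 from 0.29 and 0.26 FPKM to 1.27 and 1.23 FPKM, the second by less than the median row. MRPL36 went from 0.06 and 0.05 FPKM to 1.06 and 1.05 FPKM. MRPL3 fell, from 0.86 and 0.75 FPKM to 0.10 and 0.11 FPKM, by 2.14 on the log2 scale (SE 0.11). MRPL39 was at 1.03 and 1.14 FPKM and then at 0.59 and 0.60 FPKM, a log2 fold change of -0.77 that was not called, and MRPL17 was at 0.40 and 0.33 FPKM and then at 0.90 and 0.73 FPKM, with a log2 fold change of 0.97.

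Of the 3 MRPS genes none was called higher by limma and 1 fell. Over the 52 genes, 35 had a positive and 16 a negative change in this fraction at an unadjusted p under 0.05. Both OS+CHX values lay above both control values for 35 of the 52, against 80.8% of all rows. They lay below both for 17, against 16.5%. MRPS10 fell from 0.74 and 0.71 FPKM to 0.10 and 0.03 FPKM, by 2.35 on the log2 scale (SE 0.21). MRPS30 was at 1.19 and 1.13 FPKM in control and 0.68 and 0.63 FPKM in stressed 2nd-step libraries, a log2 fold change of -0.74. MRPS21 was at 0.32 and 0.29 FPKM and then at 0.52 and 0.46 FPKM, a log2 fold change of 0.54 that was not called.

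In the aqueous preparations the changes were fewer. As many of the 52 fell as rose in conventional RNA, and more fell than rose in the 1st-step fraction. In conventional RNA 9 of the 52 rose, against 22.2% of all rows, and 9 fell, against 11.0%. In the 1st-step fraction 8 rose, against 21.8%, and 10 fell, against 10.6%. The medians were 0.17 and 0.01 for the 52, and 0.44 and 0.43 for all rows. After centring, which took 0.56 and 0.50 off, ATP5PF and NDUFV1 were called higher in both, and 16 and 17 genes lower. In conventional RNA centring left 270 of all 3139 rows higher and 614 lower. ATP5PF, COX18, MRPL36, MRPL45, NDUFV1, TIMM23 and TOMM20 rose in all 4 preparations, and COX5A, COX7A2L, MRPL21 and TFB1M fell in all 4. No gene rose in 1 preparation and fell in another. TIMM23, of the same channel as TIMM17B, was higher in conventional OS+CHX RNA, at 1.52 and 1.58 FPKM, than in 2nd-step RNA, at 0.74 and 0.75 FPKM, but its SERIPH score of -0.48 was not called. In all, 7 of the 52 were higher in both conventional than in both 2nd-step OS+CHX libraries, against 6.53% of all rows. The other 6 were COX15, MRPL3, MRPS10, MRPS30, NDUFAF3 and TIMM22, with COX15 at 0.62 and 0.52 FPKM against 0.08 and 0.07 FPKM.

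The next question is whether the stress effect itself depended on the preparation. The log2 stress effect was higher in the 2nd-step than in the 1st-step fraction for 29 of the 52, against 72.9% of all rows, and lower for 3, against 4.21%. The 3 were MRPL3, MRPS10 and COX15, with differences of -1.47, -1.40 and -1.18. The highest were SLC25A1 at 3.27, TOMM20 at 3.17 and TIMM17B at 3.09. Between hiAGPC and conventional RNA the stress effect was higher in hiAGPC for 22, against 64.0% of all rows, and lower for none by limma, against 0.733% of all rows, while 5 were lower at an unadjusted p under 0.05. The direction depended on centring for many of these genes: centred values gave 4 higher and 15 lower for the SERIPH fractions, and 3 higher and 12 lower for hiAGPC and conventional RNA.

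The SERIPH score is the log2 ratio of the 2nd-step over the 1st-step fraction, a relative measure. The paper states that 2nd-step enrichment depends on the abundance of a transcript as well as on its extractability. This score and the semi-extractability score below were computed from DoG FPKM with limma, where the study used DESeq2. In control cells 5 of the 52 had a score called higher, against 11.0% of all rows, and none by limma a lower one, against 3.28%. At an unadjusted p under 0.05, 18 were higher and 10 lower in control cells. Both 2nd-step values lay above both 1st-step values for 25 of the 52, against 50.4% of all rows. They lay below both for 12, against 14.1%. The 5 were NDUFA10 at 1.98, COX14 at 1.27, TIMM13 at 1.24, SLC25A10 at 1.13 and COX5A at 1.00. Centring on the median row, which took 0.23 off, left 3 higher (NDUFA10, COX14 and TIMM13) and 5 lower (ATP5F1E, MRPL36, MRPS30, NDUFAF3 and TIMM23), and leaving out replicate 1 gave 6 higher and 3 lower. NDUFA10 was at 0.19 and 0.21 FPKM in the control 1st-step libraries and at 1.13 and 1.04 FPKM in the 2nd-step ones, with no overlap.

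Under OS+CHX 37 of the 52 had a SERIPH score called higher, against 79.3% of all rows, and 4 a lower one, against 2.96%. The median score was 1.55 for the 52 and 1.99 for all rows. Centring took 1.98 off and left 3 higher (TOMM20, SLC25A10 and TIMM17B) and 14 lower. All 7 complex I subunits and all 5 carriers were called higher on the deposited FPKM, of which 3 subunits and 3 carriers lay above the centred median. TOMM20 had the highest score, 3.36 (SE 0.08, adjusted p = 2.83e-12), with 0.18 and 0.16 FPKM in 1st-step and 2.60 and 2.73 FPKM in 2nd-step libraries. SLC25A10 followed at 3.05, with 0.06 and 0.03 FPKM and 1.25 and 0.96 FPKM, and TIMM17B at 3.0, with 0.31 and 0.22 FPKM and 2.72 and 2.87 FPKM.

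The 4 DoGs with a lower score under OS+CHX were those of MRPL3 (-2.21), COX15 (-1.60), MRPS10 (-1.32) and NDUFAF3 (-1.07). The regions of MRPL3, COX15 and NDUFAF3 run over another gene on the same strand, a protein-coding one for COX15, and that of MRPS10 over none. The part of such genes in these scores was not tested. MRPL3, a protein of the large subunit, was at 0.88 and 0.82 FPKM in the 1st-step and at 0.10 and 0.11 FPKM in the 2nd-step libraries. NDUFAF3 was at 1.84 and 1.75 FPKM and at 0.75 and 0.86 FPKM. For COX15 and MRPS10 the 1st-step values, 0.42 and 0.44 FPKM and 0.25 and 0.36 FPKM, also lay above every 2nd-step value. In control cells the scores of the 4 were -0.74, -0.42, 0.09 and -0.78, and none of these was called. Without replicate 1 the NDUFAF3 score was -0.95, and without replicate 2 the MRPS10 score was -0.81, both short of the limit of 1.

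**Figure D3:**
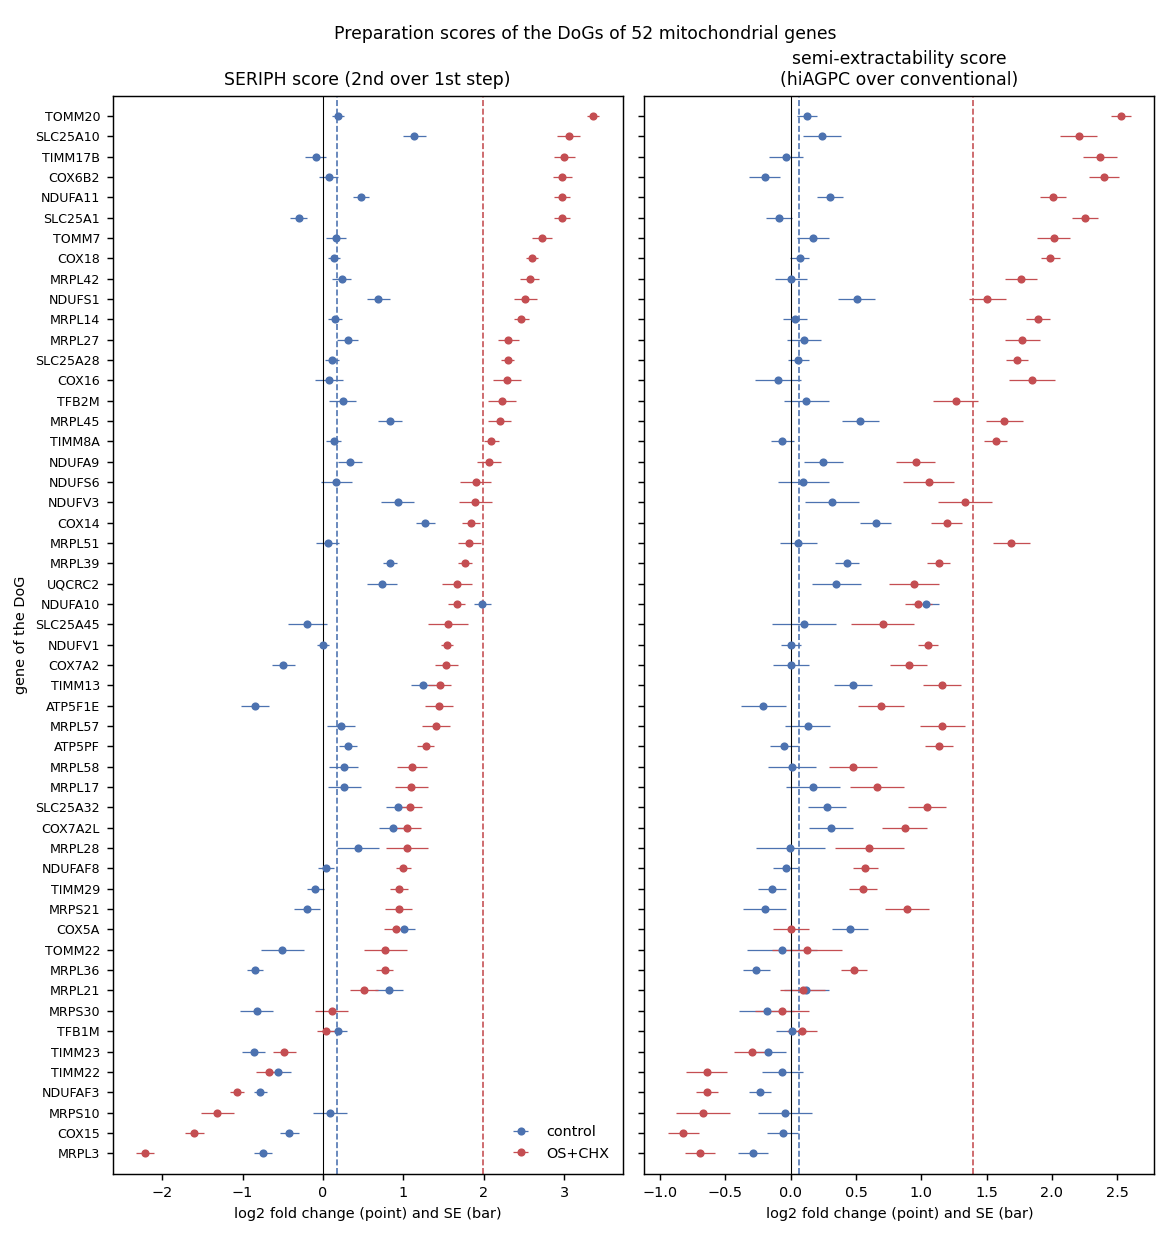
SERIPH score (left) and semi-extractability score (right) of each of the 52 genes in control (blue) and OS+CHX (red) cells, as log2 fold changes with SE, ordered by the SERIPH score under OS+CHX. Dashed lines are the medians of all rows, at 1.99 and 1.40 under OS+CHX. MRPL3 is at the bottom with -2.21 and TOMM20 at the top with 3.36.

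The semi-extractability score is the log2 ratio of hiAGPC over conventional RNA. In control cells only NDUFA10 was called, at 1.03 (SE 0.10), with 0.24 and 0.17 FPKM in conventional and 0.52 FPKM in both hiAGPC libraries. That is 1 gene higher, against 1.08% of all rows, and none lower, against 0%, with 8 higher and 3 lower at an unadjusted p under 0.05. The NDUFA10 call was lost after centring, which took 0.08 off, and without replicate 2. Under OS+CHX 27 of the 52 were called higher, against 68.8% of all rows, and none lower by limma, against 0.478%, while 5 were lower at an unadjusted p under 0.05. The median was 1.05 for the 52 and 1.40 for all rows. TOMM20 was again highest at 2.53, followed by COX6B2 at 2.40, TIMM17B at 2.37, SLC25A1 at 2.25 and SLC25A10 at 2.20. Of these TOMM20 alone was called after centring, which took 1.44 off and left 11 genes lower. MRPL3, COX15, MRPS10 and NDUFAF3 had semi-extractability scores of -0.70, -0.82, -0.67 and -0.64 under OS+CHX, short of the limit of 1 in size.

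The 2 heated preparations, hiAGPC and the 2nd-step fraction, were then compared with each other. In control cells no gene was higher in the 2nd-step fraction than in hiAGPC by limma, against 0.860% of all rows, and 1 was lower, against 1.47%, with 16 higher and 8 lower at an unadjusted p under 0.05. The lower one was TIMM23, at 0.19 and 0.20 FPKM in 2nd-step and 0.54 and 0.49 FPKM in hiAGPC libraries, a log2 ratio of -1.06, and without replicate 1 it was no longer called. Under OS+CHX 3 were higher, against 6.91%, and 2 lower, against 1.75%. The 3 were SLC25A45 at 1.10, NDUFA11 at 1.09 and MRPL45 at 1.03, and the 2 were MRPL3 at -1.87 and COX15 at -1.11. MRPL3 was at 0.65 FPKM in both OS+CHX hiAGPC libraries, between its conventional and its 2nd-step values. The median log2 ratio was 0.49 for the 52 and 0.52 for all rows, and centring, which took 0.48 off, left none higher and 5 lower.

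**Figure D4:**
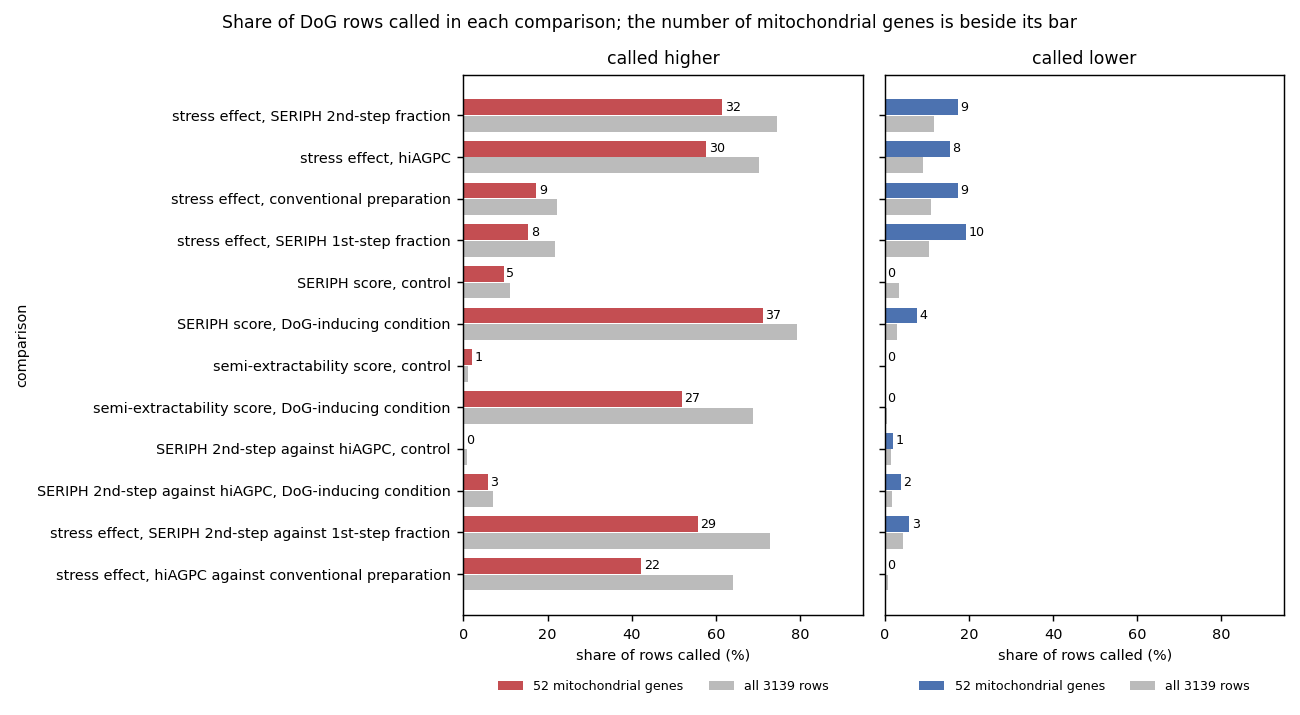
Share of the 52 genes (coloured bars, with the number of genes beside them) and of all 3139 rows (grey bars) called higher (left) and lower (right) in each comparison. The coloured bar is shorter than the grey one for the stress effects in 2nd-step and hiAGPC RNA on the left, 32 genes against 74.6% of all rows in the 2nd-step fraction and 30 against 70.2% in hiAGPC, and longer on the right.

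Listing gives a second view, because a DoG is listed in a library only where reads go on past the gene for at least 10 kb by the caller's coverage limit. The 52 genes had 226 listed regions of 13532 in all. The number of the 52 listed per library was 15 and 18 in control and 31 and 34 in OS+CHX 2nd-step RNA, and 12 and 10 and then 23 and 22 in hiAGPC RNA. It was 10 and 9 and then 7 and 5 in conventional RNA, and 9 and 9 and then 6 and 6 in the 1st-step fraction. Over the 3135 genes with a row, the shares listed were 21.1% and 20.4% in control and 72.4% and 75.7% in OS+CHX 2nd-step RNA, against 28.8% and 34.6% and then 59.6% and 65.4% of the 52. The corresponding shares of all these genes in hiAGPC RNA were 14.8% and 14.5% and then 50.3% and 49%, in conventional RNA 10.6% and 9.95% and then 11.8% and 10.8%, and in the 1st-step fraction 8.77% and 9.86% and then 9.92% and 11.5%. None of the 4 pairs of groups overlap for the 52, and each gave p = 0.333 in the exact 2-sided permutation test, which is the smallest that 2 libraries against 2 allow. Of the 52, 32 (61.5%) were listed only in OS+CHX libraries, 10 (19.2%) only in control libraries and 10 in both, where the shares over all genes with a row were 74.1% for OS+CHX only, 12% for control only and 13.8% for both.

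Reproducible DoGs, listed in both libraries of a group, numbered 14 of the 52 (26.9%) in control 2nd-step RNA, against 18.2% of all genes with a row. They were the DoGs of COX14, COX5A, COX7A2L, MRPL14, MRPL27, MRPL3, MRPL39, MRPS30, NDUFA10, NDUFAF8, NDUFV3, SLC25A32, TFB1M and TIMM13. Under OS+CHX 27 (51.9%) were reproducible in that fraction, against 64.1% of all genes with a row, and 5 were in both sets (COX14, MRPL14, MRPL27, NDUFAF8 and SLC25A32), which is 18.5% of the OS+CHX set and 35.7% of the control set. Over all genes with a row the shared ones were 10.9% of the OS+CHX set and 38.5% of the control set. The 22 found only under OS+CHX included TOMM20, TOMM7, TIMM17B, TIMM23, TIMM29 and TIMM8A of the import machinery and ATP5F1E and ATP5PF of ATP synthase. MRPS30 was listed in 15 to 20 kb regions in every control library, and TFB1M in regions of 15 or 20 kb.

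In aqueous OS+CHX RNA 5 of the 52 (9.62%) were reproducible in the 1st-step fraction (MRPL14, MRPL36, MRPS30, NDUFAF3 and TFB1M), against 8.10% of all genes with a row. In conventional RNA 4 (7.69%) were (MRPL17, MRPL36, MRPS30 and TFB1M), against 9.73%. These were short, between 10 and 20 kb. MRPL36 was at 0.57 and 0.59 FPKM in the OS+CHX 1st-step and 0.42 and 0.46 FPKM in the conventional libraries, above its control values of 0.21 and 0.15 FPKM and 0.13 and 0.15 FPKM. NDUFAF3 was listed only under OS+CHX although its level was not higher there: it was at 2.30 and 2.08 FPKM in the control and 1.84 and 1.75 FPKM in the OS+CHX 1st-step libraries. Listing and level are therefore given separately.

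The regions of 100 kb and more were all in OS+CHX 2nd-step or hiAGPC RNA. TOMM20 was listed over 480 and 497 kb in the 2nd-step libraries and over 420 and 317 kb in hiAGPC. COX18 was listed over 320 and 380 kb and over 200 and 35 kb, TIMM29 over 260 and 360 kb and over 25 kb in both hiAGPC libraries, and NDUFV1 over 215 and 345 kb in the 2nd-step libraries alone. TIMM17B was listed over 130 and 142 kb and over 107 and 65 kb. Replicates differed widely in length, as the 200 and 35 kb of COX18 in hiAGPC show, so a single length has a large error.

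MRPL14 and MRPL27 show short control DoGs that became long. MRPL14 was listed over 20 kb in all 8 control libraries and over 266 and 281 kb in the OS+CHX 2nd-step libraries, and it was listed over 185 and 35 kb in hiAGPC. In the 2nd-step fraction MRPL27 went from 20 kb in both libraries to 115 and 75 kb, and NDUFAF8 from 10 kb to 50 and 55 kb. Their FPKM in control cells is averaged over the long region and so is lower than over the 20 kb or 10 kb that were listed there. SLC25A32 was listed over 25 kb in both control 2nd-step libraries and over 10 and 25 kb under OS+CHX.

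**Figure D5:**
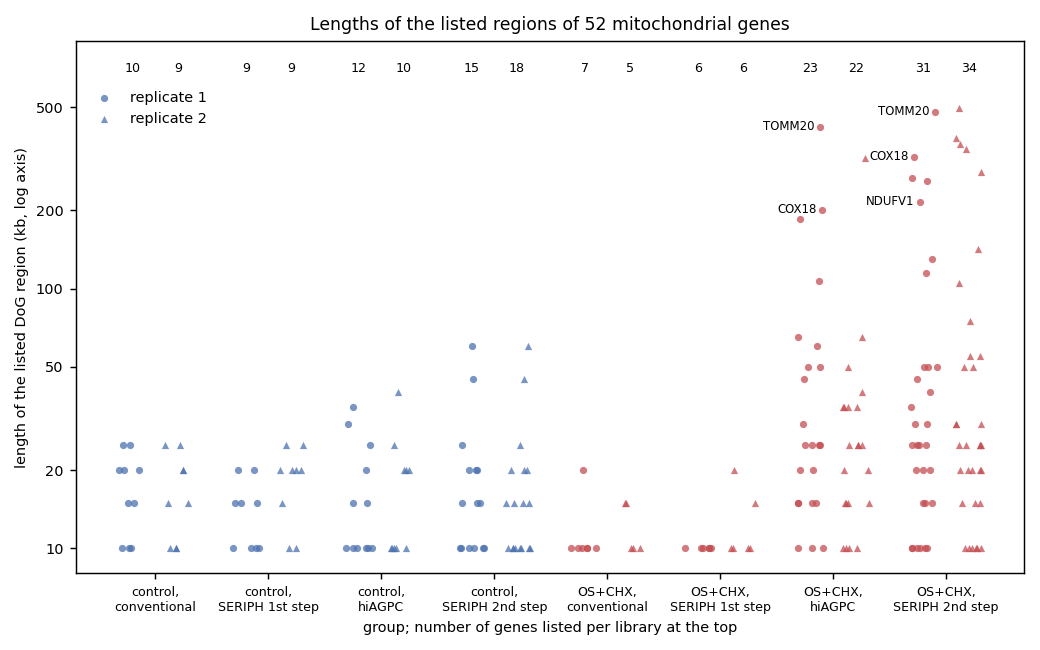
Length of each listed DoG region of the 52 genes (log axis, in kb) by group, with circles for replicate 1 and triangles for replicate 2 and the number of listed genes at the top. Regions of 100 kb and more appear only in the OS+CHX hiAGPC and 2nd-step libraries, up to TOMM20 at 480 and 497 kb.

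Of the 18 genes reproducible under OS+CHX in both the 2nd-step fraction and hiAGPC, 14 had a longer mean region in the 2nd-step fraction, 3 a shorter one and 1 the same, and the median ratio was 1.33. Over all 1290 such genes 970 were longer, 113 shorter and 207 the same, with a median ratio of 1.36. For 10 of the 18 (55.6%) the shorter 2nd-step region exceeded the longer hiAGPC region, as for 46.0% of all genes. ATP5PF was a shorter one, with 10 kb in both 2nd-step and 60 and 40 kb in the hiAGPC libraries, although its FPKM was about equal, 0.76 and 0.99 in the 2nd-step and 0.91 and 0.84 in hiAGPC libraries. In control cells the 9 genes reproducible in both had a median ratio of 1.00, as did all 372 such genes.

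Nuclear genes of mitochondria outside the symbol rule were listed in 6 groups, with 48 of 182 measured. In the 2nd-step fraction 25 of the 48 rose with OS+CHX, against 74.6% of all rows, and 9 fell, against 11.7%. Their median log2 fold change was 1.22, below the 2.38 of all rows. Genes of mitochondrial DNA and its expression had 7 of 11 rising and 3 falling, with POLG, the DNA polymerase, going from 0.01 FPKM in both libraries to 1.6 and 1.72 FPKM, and TEFM, the transcription elongation factor, falling from 0.74 and 0.88 FPKM to 0.02 and 0.01 FPKM. Translation outside the ribosome had 3 of 9 rising and 3 falling, respiration outside the rule 2 of 9 and 2, import, folding and proteolysis 5 of 5 and none, dynamics and cristae 4 of 6 and 1, and matrix metabolism 4 of 8 and none. CYCS, cytochrome c, went from 0.31 and 0.29 FPKM to 3.89 and 3.95 FPKM. The SERIPH score under OS+CHX was called higher for 31 of the 48, against 79.3% of all rows, and lower for 3, against 2.96%. By group, in the order above, it was higher for 8, 5, 6, 3, 4 and 5 genes and lower for 1, 1, 0, 0, 0 and 1. The 3 lower ones were GUF1, MTPAP and CS. CS, the citrate synthase of the matrix, was at 5.13 and 5.08 FPKM in the 1st-step and 1.05 and 0.97 FPKM in the 2nd-step libraries.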

How the data were processed

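RNA of HEK293 cells was sequenced as 16 stranded, rRNA-depleted libraries. Per the labels and the study's methods, the authors trimmed reads with fastp 0.25.0, removed ribosomal DNA matches with Bowtie2 2.5.4, aligned uniquely to GRCh38 with STAR 2.7.11b and called DoGs with ARTDeco on GENCODE genes. The deposited files are listed DoG regions of each library and 1 table of FPKM values over 1 region for each gene; which reads the FPKM values were scaled to is not given in the sources used here. No read counts are given, so depth is unknown and no counting interval was made. 

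Levels were tested as log2(FPKM + 0.1) with limma 3.58.1 (R 4.3.3, intensity trend, 8 group means over all 16 libraries), with Benjamini-Hochberg adjustment over 3139 rows. Called meant an adjusted p under 0.05 and a log2 fold change of at least 1. The test was tried on simulated data. Lengths and listings came from the regions, and sequence and gene positions from GRCh38 with GENCODE 44, an older release than the authors used. No per-sample column was left without a sample.

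The members, the 6 lists of other mitochondrial genes and the tests were chosen with earlier results of these data known. Genes named are, in each role, those with the highest and lowest 2nd-step stress effect, both TFB genes, the 3 highest and 3 lowest SERIPH scores under OS+CHX, the 3 lowest called lower in any comparison, those reproducible in control or in aqueous OS+CHX RNA and the 3 longest regions. Other genes were named after their values were seen, to give the members of a small count or an example. Alternatives were other pseudocounts (0.01 and 1), a replicate block, a filter on mean FPKM under 0.1, each library centred on its median row, the compared libraries alone, no trend, adjusted p alone, leaving out a replicate, and genes whose region covers no other gene on the strand; for regions, either replicate, 20 kb as a minimum and mutual cover of 50%. Some items are not reported here.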

Additional observations from a re-analysis of the deposited data

Results flagged for a closer look

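The stress effect differed between preparations by a test of the difference itself. It was higher in the SERIPH 2nd-step than in the 1st-step fraction for 29 of the 52 genes and lower for 3, against 72.9% and 4.21% of all rows, and after centring on the median row for 4 and 15. The 3 were MRPL3 (difference of log2 fold changes -1.47), MRPS10 (-1.40) and COX15 (-1.18). The 3 highest were SLC25A1 (3.27), TOMM20 (3.17) and TIMM17B (3.09). It was higher in hiAGPC than in conventional RNA for 22 and lower for none by limma (5 at an unadjusted p under 0.05), against 64.0% and 0.733% of all rows, and after centring for 3 and 12, with the highest differences for COX6B2 (2.60), TIMM17B (2.40) and TOMM20 (2.40).

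Regions were also listed for 3 genes that fit the symbol rule and have no row of FPKM values. MRPS31 was listed in 3 OS+CHX libraries, over 35 kb in a 2nd-step library and over 25 kb in both hiAGPC libraries. MRPS23 was listed in 2 OS+CHX libraries, both aqueous, and MRPL35 in 1, a 2nd-step library. None of the 3 was listed in a control library.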

How the results depend on the processing

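The counts of the 52 genes called higher are given in the order stress effect in 2nd-step, hiAGPC, conventional and 1st-step RNA, SERIPH score in control and OS+CHX, semi-extractability score in control and OS+CHX, 2nd-step over hiAGPC in control and OS+CHX, and the differences between stress effects for the SERIPH fractions and for hiAGPC with conventional RNA. With the settings used in the report they were 32, 30, 9, 8, 5, 37, 1, 27, 0, 3, 29 and 22. With each library centred on its median row they were 6, 5, 2, 2, 3, 3, 0, 1, 0, 0, 4 and 3. With a pseudocount of 1 they were 10, 3, 0, 0, 0, 8, 0, 2, 0, 0, 6 and 2. A pseudocount of 0.01 gave 19 in conventional and 16 in 1st-step RNA, 12 and 4 for the control SERIPH and semi-extractability scores and 3 for 2nd-step over hiAGPC in control. An adjusted p alone, without a limit on size, gave 22 and 18 for the aqueous stress effects, 15 for the control SERIPH score, 5 and 41 for the semi-extractability score in control and OS+CHX, 8 and 32 for 2nd-step over hiAGPC in control and OS+CHX, and 35 for the difference between hiAGPC and conventional RNA. For the control semi-extractability score, the compared libraries alone gave 0, and genes whose region covers no other gene on the strand gave 1 of 30. Leaving out a replicate gave 0 to 1 for that score and 0 to 1 for 2nd-step over hiAGPC in control. After centring the control SERIPH score was lower for 5 genes and with replicate 1 left out for 3, against 0. The median length ratio was 1.23 where regions cover at least 50% of each other, and 1.20 to 1.33 with a replicate left out. A minimum length of 20 kb left 6 of the 14 reproducible DoGs in control 2nd-step RNA, 20 of 27 under OS+CHX, and 0 of the 5 and 0 of the 4 in aqueous OS+CHX RNA. The cause of these moves was not tested; by construction a larger pseudocount shrinks the fold changes of low values.

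Centring reversed the sign of the 2nd-step stress effect of 18 of the 52 genes. The 8 of them among the 34 genes named by rule were ATP5F1E (-0.21), MRPL17 (-1.27), MRPL27 (-0.40), MRPS21 (-1.71), NDUFAF8 (-0.60), SLC25A10 (-0.39), TIMM29 (-0.87) and UQCRC2 (-1.44). It reversed the SERIPH score under OS+CHX of 28 of the 52, and the 19 named by rule were ATP5F1E (-0.54), ATP5PF (-0.71), COX14 (-0.15), COX5A (-1.08), COX7A2L (-0.94), MRPL17 (-0.89), MRPL36 (-1.22), MRPL39 (-0.22), MRPS21 (-1.05), MRPS30 (-1.88), NDUFA10 (-0.32), NDUFAF8 (-0.99), NDUFV1 (-0.45), NDUFV3 (-0.093), SLC25A32 (-0.90), TFB1M (-1.95), TIMM13 (-0.54), TIMM29 (-1.04) and UQCRC2 (-0.32). With a replicate left out, 2 uncalled SERIPH scores under OS+CHX took either sign, that of MRPS30 from -0.32 to 0.53 and that of TFB1M from -0.24 to 0.32.

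Replicate numbers are shared between groups. Deviations of same-numbered libraries from their group means correlated between -0.104 and 0.143 over 28 pairs of groups. No strong shared deviation was seen, which does not show that pairing is absent. With the replicate number as a replicate block, 32, 30, 9, 8, 5, 37, 1, 27, 0, 3, 29 and 22 genes were called higher, and it changed no call for the stress effect in 2nd-step RNA or the SERIPH score under OS+CHX of the 34 genes named by rule. The block set a single effect over all 16 libraries, so it does not model pairing within each condition. The methods say that the preparations were made from the same samples. By the protocol, 2nd-step RNA comes from the interphase of a lysate whose aqueous phase gave 1st-step RNA. The labels give both fractions the same replicate numbers but do not state that same-numbered libraries share a lysate. The main fits treated the 16 libraries as independent. Depth is unknown, values are rounded to 0.01 FPKM, and groups have 2 libraries, so folds against control values near 0 depend on the pseudocount.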
